A study of Mus musculus with 5 samples.

Results

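The 10 mitochondrially encoded transcripts described here are mt-Nd1, mt-Nd2, mt-Nd3, mt-Nd4 and mt-Nd5 of complex I, mt-Cytb of complex III, mt-Co1, mt-Co2 and mt-Co3 of complex IV and mt-Atp6 of complex V. The members were picked out by gene symbol, as a set proposed with earlier results of these data in view, among them the high share in 1 section, and all 10 were found in each of the 5 expression tables, among 13711 genes shared by the tables of which 13 are mitochondrially encoded. The study captured transverse heart sections of wild-type C57BL/6 mice on Visium slides, an array of barcoded spots that each take up polyadenylated RNA from several cells. Mice were operated at postnatal day 1, with ligation of the left anterior descending artery for myocardial infarction (MI) or a sham procedure, and hearts were taken 3 or 7 days later. The groups were sham day 3 (1 section), MI day 3 (1 section), sham day 7 (1 section) and MI day 7 (2 sections, replicates 1 and 2). The study's supplement describes the 2 MI day 7 sections as independent biological replicates and each other group as a single biological sample. All levels below are a transcript's share of its spot's total, in percent, averaged over the spots of a section.

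The mitochondrial genome codes for 13 proteins, each a subunit of the respiratory chain or of ATP synthase, and all other subunits are coded in the nucleus and imported. The Nd proteins form the proton-pumping membrane arm of complex I, which takes electrons from NADH. Cytochrome b carries electrons through complex III, Co1 to Co3 form the catalytic core of cytochrome c oxidase, and Atp6 is part of the proton channel of ATP synthase. Cardiac muscle is among the tissues richest in mitochondria, and its transcripts from this genome are abundant. They are transcribed together as long polycistronic RNA, cut apart and polyadenylated, so their levels can move together or separately after cutting.

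Because capture on the array is through the poly(A) tail, the last 30 bases of 6 transcripts are shown, taken from the GENCODE transcripts of GRCm38, 5′ to 3′ on the plus strand of the mitochondrial chromosome. The set holds the 3 members whose annotated transcript ends within a codon, where the tail completes the stop codon, and 3 whose results stand at an end below, mt-Co1 and mt-Nd2 in MI day 7 replicate 1 and mt-Co2 at the edge. Capitals mark the stop codon or the part of it that the transcript holds. The annotated start and end of each whole gene, which is a single exon, stand before it.
mt-Co3, chrM:8607-9390: tatacgtctccatttattgatgaggatctT
mt-Nd4, chrM:10167-11544: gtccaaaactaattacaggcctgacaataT
mt-Cytb, chrM:14145-15288: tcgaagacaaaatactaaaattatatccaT
mt-Co1, chrM:5328-6872: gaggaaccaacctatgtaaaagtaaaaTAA
mt-Nd2, chrM:3914-4951: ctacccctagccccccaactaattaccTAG
mt-Co2, chrM:7013-7696: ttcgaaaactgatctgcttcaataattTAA
The other members lie at chrM:2751-3707 (mt-Nd1), chrM:7927-8607 (mt-Atp6), chrM:9459-9806 (mt-Nd3) and chrM:11742-13565 (mt-Nd5). All 10 are on the plus strand. mt-Atp6 shares its last base with the first of mt-Co3 and overlaps mt-Atp8, mt-Nd4 overlaps mt-Nd4l, and mt-Nd5 overlaps mt-Nd6 on the opposite strand, so reads within those overlaps may have been counted for either gene.

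The 5 sections held 3364 spots, from 376 in MI day 3 to 960 in sham day 7. The median raw UMI count (unique molecules) per spot was 20842.5 to 34837.5 in 4 sections and 53940 in MI day 7 replicate 1. Of the 1948 spot barcodes, 897 occurred in more than 1 section, which follows from the fixed layout of the array. The table of sham day 3 held raw counts and the other 4 held counts corrected for depth within each section, so levels set side by side across sections come from tables that were normalised separately. Between 1 and 10 spots in each of 4 sections had fewer than 2 neighbouring spots, with median raw UMI counts of 534.5 to 9059, and the results were recomputed without them. Cardiomyocyte markers were abundant in every section (Tnnt2 4749 to 5295 CPM, counts scaled to a spot total of 1000000). In a spot, fewer cells of a type and less RNA per cell cannot be told apart.

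The 10 transcripts together took 15.7% of the spot total in sham day 3, 13.8% in MI day 3, 15.7% in sham day 7, 24.5% in MI day 7 replicate 1 and 15.4% in MI day 7 replicate 2. The sections other than MI day 7 replicate 1 therefore lay within 2 percentage points of each other, and that section stood apart from all of them, its own replicate included. The standard deviation over spots was 3.11 to 5.67 percentage points, and spots are not replicates. The lowest and highest single spot were at 4.85% and 29.9% in sham day 3, 1.73% and 27.6% in MI day 3, 6.40% and 36.0% in sham day 7, 6.57% and 57.7% in MI day 7 replicate 1, and 3.05% and 41.7% in replicate 2. The remaining mitochondrially encoded messages in the tables, mt-Atp8, mt-Nd4l and mt-Nd6, summed to 0.0137% to 0.0171% of the total in the same 4 sections and to 0.0361% in MI day 7 replicate 1.

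**Figure D1:**
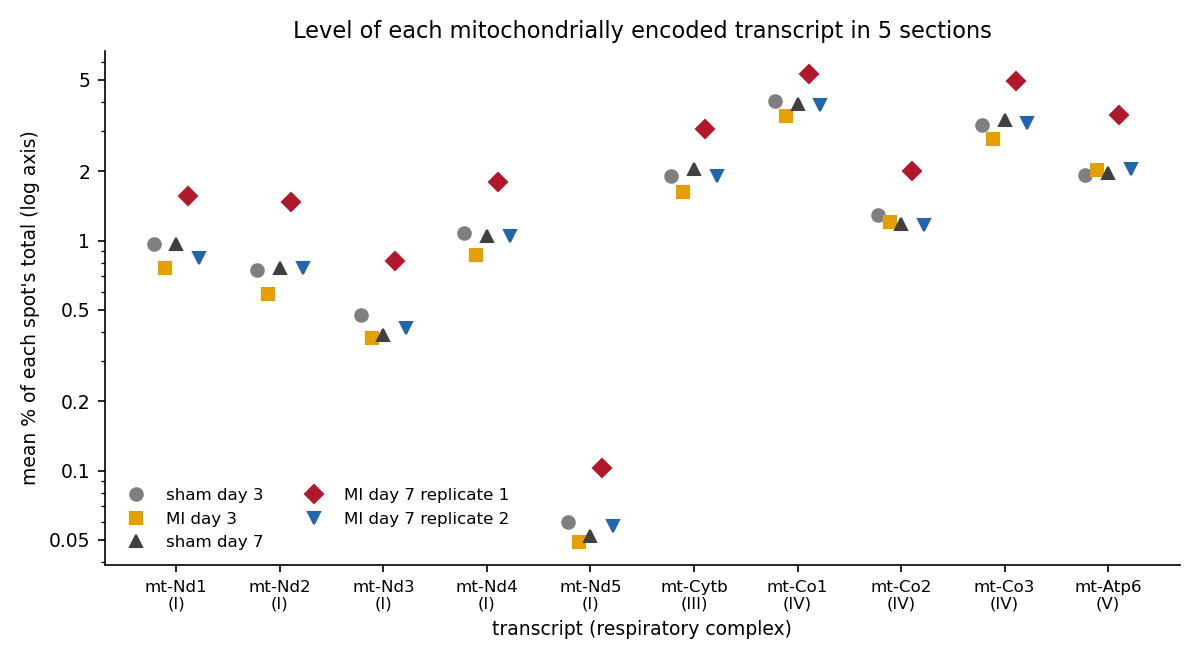
Mean share of the spot total (percent, log axis) of each of the 10 transcripts, grouped by respiratory complex, with 1 point per section. MI day 7 replicate 1 (red diamonds) is the highest section for every transcript, from 0.102% for mt-Nd5 to 5.29% for mt-Co1.

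Among the complex I members, mt-Nd1 was at 0.962% in sham day 3, 0.756% in MI day 3, 0.964% in sham day 7, 1.56% in MI day 7 replicate 1 and 0.839% in replicate 2. mt-Nd2 was, in the same order, at 0.744%, 0.586%, 0.763%, 1.47% and 0.758%. mt-Nd3, the shortest of the 10, was at 0.475%, 0.377%, 0.390%, 0.816% and 0.418%. In all 3 the day 3 infarct was the lowest section and MI day 7 replicate 1 the highest. mt-Nd4 was at 1.07%, 0.865%, 1.04%, 1.79% and 1.04%. mt-Nd5, the longest transcript, was the scarcest at 0.0600%, 0.0491%, 0.0520%, 0.102% and 0.0577%. Its 6880 raw UMIs in sham day 3 have an exact Poisson 95% interval of 6718 to 7045, which covers counting error only, so counting error was small for every member.

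mt-Cytb, the only mitochondrially encoded subunit of complex III, was at 1.90% in sham day 3, 1.62% in MI day 3, 2.04% in sham day 7, 3.07% in MI day 7 replicate 1 and 1.92% in replicate 2. Of the complex IV core, mt-Co1 was at 4.06%, 3.50%, 3.92%, 5.29% and 3.89%. mt-Co2 was at 1.30%, 1.21%, 1.18%, 2.01% and 1.17%, with its lowest value in MI day 7 replicate 2. mt-Co3 was at 3.18%, 2.77%, 3.36%, 4.92% and 3.24%. mt-Atp6 was at 1.93%, 2.02%, 1.96%, 3.51% and 2.05%, with its lowest value in sham day 3. MI day 3 was the lowest section for 8 of the 10 members, all but mt-Co2 and mt-Atp6. Per kilobase of annotated transcript, and in all 5 sections, mt-Co3 had the highest share (3.53% to 6.27% per kilobase) and mt-Nd5 the lowest (0.0269% to 0.0560%). With capture at the 3′ end, a level per length need not order the transcripts by their number of molecules.

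The first question was whether infarction or time after surgery changed these levels, with the section as the replicate. Across both days MI sections averaged 17.9% ± 5.82 (SD, n = 3) and sham sections 15.7% ± 0.00461 (SD, n = 2) for the summed share, a difference of 2.22 percentage points. Without MI day 7 replicate 1 the difference was -1.11 percentage points, so its sign rests on that section. By limma with Benjamini-Hochberg adjustment over all genes, none of the 10 changed with MI (log2 changes -0.01 to 0.29, standard errors 0.29 to 0.34, adjusted p 0.857 to 0.999), where 0.00773% of 12933 genes passed. The fitted direction depended on single sections: the members' median of 0.10 was -0.12 without MI day 7 replicate 1, -0.26 without sham day 7, 0.38 without either sham day 3 or MI day 3 and 0.27 without MI day 7 replicate 2. The single gene that passed was no member, and 692 genes were higher and 356 were lower when p under 0.05 was not adjusted (817 and 670 by median-of-ratios scaling). For a single value, an exact permutation of 3 sections against 2 cannot give a two-sided p below 0.2.

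Between day 7 and day 3 all 10 had positive log2 changes of 0.14 (mt-Co2) to 0.50 (mt-Nd2), none of which passed (adjusted p 0.371 to 0.780), where 0.595% of genes did. Without MI day 7 replicate 1 the median of the 10 went from 0.31 to 0.06. Without MI day 3 it was -0.02. In the comparison of MI with sham at day 7, which has 2 MI sections and 1 sham section, the members' log2 changes were 0.21 (mt-Co1) to 0.58 (mt-Nd3), with an adjusted p of 1.00 for each, where 0.232% of genes passed. The median of 0.38 became -0.01 with replicate 2 alone and 0.77 with replicate 1 alone, values for which no test remains. At day 3, with 1 section per operation and therefore no replicate check, 9 of the 10 were lower in MI, with log2 differences from -0.35 (mt-Nd1) to 0.07 (mt-Atp6) and a median of -0.26, against a median of 0.04 over all genes.

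MI day 7 replicate 1 was then compared with the other sections in detail. Its levels were 1.38-fold (mt-Co1) to 2.06-fold (mt-Nd2) the mean of the other 4 sections, with a median fold of 1.77 over the members. Against its own replicate the folds were 1.36 to 1.95. The summed share in that section was 28.1% in spots whose highest score was CM1, against 16.1% to 17.2% in the other sections, and 21.8% against 13.2% to 14.1% in spots scored highest for endothelial cells. In macrophage-scored spots it was 25.01% against 4.02% to 15.9%, and in fibroblast-scored spots 18.2% against 6.69% to 14.7%. Of the 7 classes with at least 10 spots in this section and in others, 6 were highest in this section, while CM4-scored spots, at 20.8%, lay below those of sham day 3 (22.8%). Of the CM4-scored spots, 1.32% lay at the edge in this section and 56.1% in sham day 3. In interior CM4-scored spots alone the share was 20.8% in this section and 20.6% in sham day 3.

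The difference was also seen within positions and depths. In interior spots the share was 23.6% against 13.03% to 15.4%, and at the edge 30.1% against 16.2% to 21.5%. In the 4 quartiles of raw UMI count, cut within each section, replicate 1 lay at 23.7% to 25.2% and the other sections at 13.1% to 16.6%. These quartiles do not match depth between sections. The lowest of replicate 1 had a median of 42484 raw UMIs. The highest had 25583.5 in sham day 3, 28447.5 in sham day 7, 27709.5 in MI day 7 replicate 2 and 44532.5 in MI day 3. Restricted to spots with 20000 to 40000 raw UMIs, the share was 22.3% in the 49 such spots of replicate 1, and 13.7% to 15.9% in the other sections. Leaving out the 5 isolated spots, which averaged 51.0%, gave 24.4%.

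The make-up of the summed transcripts also differed in that section. mt-Co1 gave 21.6% of the summed 10 in replicate 1 and 24.96% to 25.9% in the other sections. mt-Nd2 gave 5.98% against 4.26% to 4.93%, and mt-Nd3 3.31% against 2.49% to 3.03%. All 5 Nd members had a larger part than in any other section, mt-Co1 and mt-Co3 a smaller one, and mt-Cytb, mt-Co2 and mt-Atp6 lay within the range of the others. The part of mt-Co1 varied little with the kind of spot in that section, at 21.6% in CM1-dominant, 21.6% in CM4-dominant and 21.4% in FB-dominant spots, and 21.2% at the edge.

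**Figure D2:**
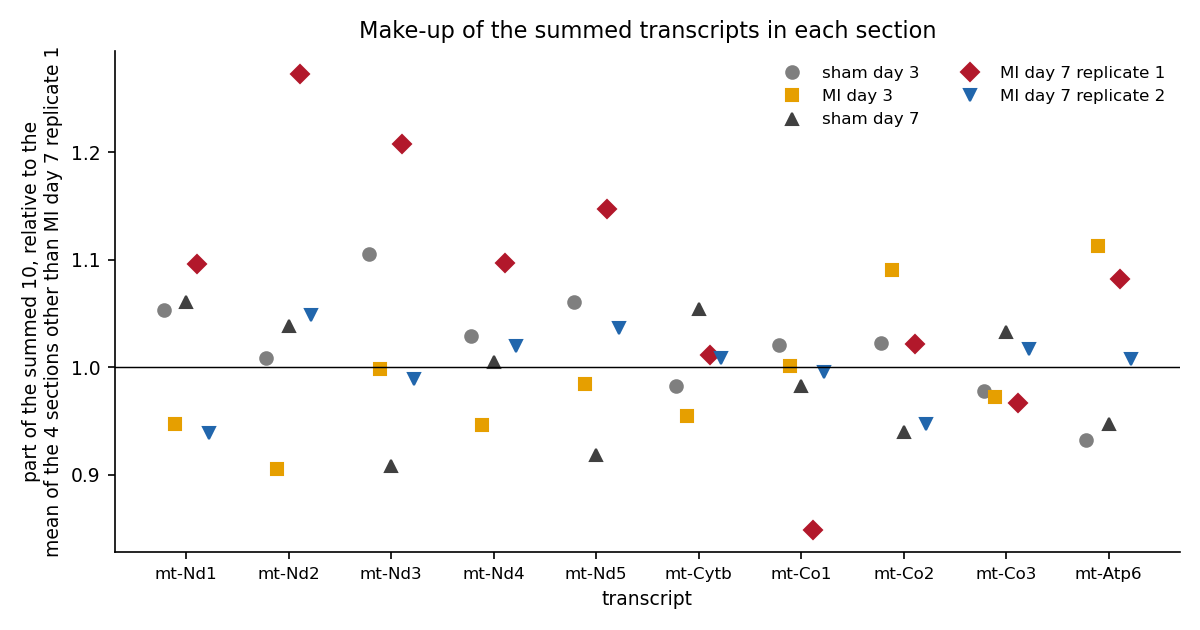
Each transcript's part of the summed 10 in each section, divided by its mean part in the 4 sections other than MI day 7 replicate 1 (the line at 1). In MI day 7 replicate 1 (red diamonds) mt-Nd2 and mt-Nd3 are the highest points and mt-Co1 the lowest.

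Other readouts did not rise in the same proportion in this section. The 79 nuclear-encoded subunits of complexes I to V that were measured summed to 10.8% of the total in replicate 1 against 9.28% to 12.7% in the others, and the 7 cardiomyocyte markers to 4.37% against 3.71% to 4.50%. Ribosomal protein transcripts were at 6.59%, below the 7.10% to 9.30% of the other sections. Haemoglobin transcripts were at 0.855% against 0.440% to 1.14%. All these shares are of a total that includes the 10 transcripts, so a larger share of the 10 lowers the others by construction. They were not recomputed on a total without the 10, where the order of the sections could differ. The section differed from the others in median raw UMI count (53940 per spot), and the part of that depth in the difference between sections was not tested. Within sections the rank correlation of the summed share with raw UMI count over spots was -0.12 to 0.15, a description over spots that share 1 library.

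The second question was how the transcripts were distributed within the tissue. Their summed share was spatially clustered in all 5 sections, with Moran's I, a measure of likeness between neighbouring spots that is near 0 for no pattern and 1 for full likeness, at 0.70 in sham day 3, 0.80 in MI day 3, 0.38 in sham day 7, 0.52 in MI day 7 replicate 1 and 0.60 in replicate 2. The 10 members varied together over spots: the median of the 45 pairwise rank correlations was 0.92, 0.89, 0.77, 0.91 and 0.90 in that order. In all 5 sections the closest pair was mt-Co1 with mt-Co3 (0.91 to 0.98), and the loosest pair always held mt-Nd5, the scarcest member. These correlations share each spot's total as denominator and are descriptions.

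**Figure D3:**
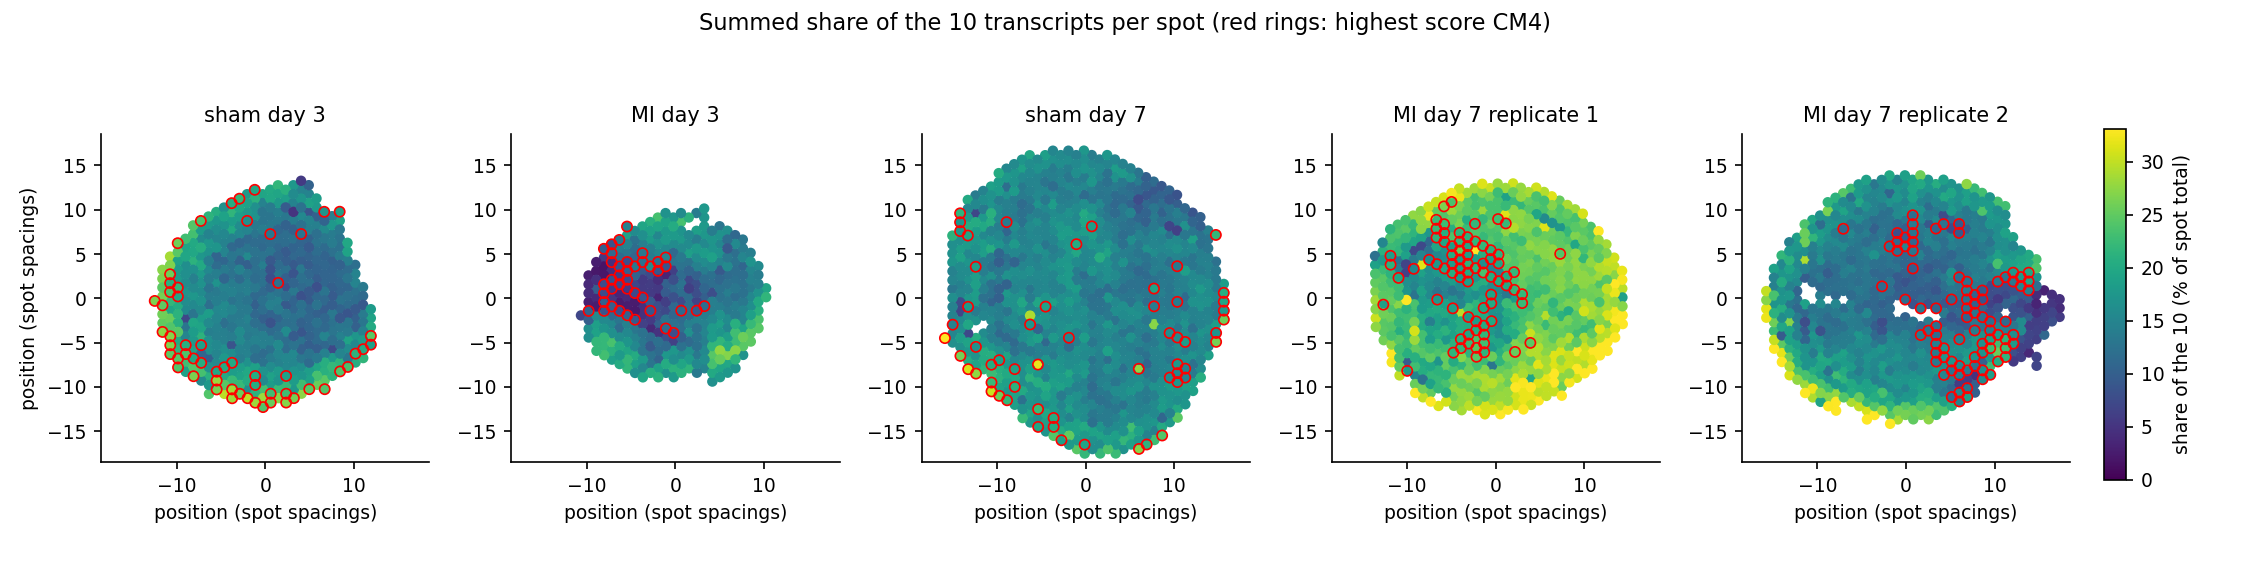
Map of the summed share of the 10 transcripts (percent of the spot total, colour, capped at the 99th percentile) in the 5 sections, with positions in spot spacings. Spots with fewer than 2 neighbours are left out. Red rings mark CM4-dominant spots, of which 56.1% and 43.1% lie at the edge in the sham sections and 1.32% to 15.1% in the MI sections.

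Each spot carried 11 scores, deposited with the data, for the likeness of its expression to cell populations of earlier single-nucleus data, and is named here by its highest score. CM1 to CM5 are cardiomyocyte populations, of which the study describes CM4 as immature, and FB are fibroblasts. The scores were made from the same expression values, so differences between classes of spot are not independent of expression. The summed share in CM4-dominant and CM1-dominant spots was 22.8% and 16.2% in sham day 3, and 20.5% and 16.1% in sham day 7. In the MI sections the order was reversed, with 9.67% and 17.0% in MI day 3, 20.8% and 28.1% in MI day 7 replicate 1, and 14.1% and 17.2% in replicate 2. There were 40 to 86 CM4-dominant and 211 to 491 CM1-dominant spots per section.

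mt-Co2, which carries the entry site for electrons from cytochrome c, was at 2.23% in CM4-dominant and 1.30% in CM1-dominant spots of sham day 3 and at 1.63% and 1.21% in those of sham day 7. In MI day 3 it was at 0.833% and 1.51%, in MI day 7 replicate 1 at 1.61% and 2.36%, and in replicate 2 at 1.13% and 1.31%. The log2 difference of CPM was 0.78 in sham day 3, 0.43 in sham day 7, -0.86 in MI day 3, -0.55 in MI day 7 replicate 1 and -0.21 in replicate 2. For mt-Nd5 the differences were 0.63 and 0.35 against -0.96, -0.51 and -0.35, and for mt-Co1 0.43 and 0.33 against -0.82, -0.44 and -0.31. For all 10 members both sham sections were above 0 and all 3 MI sections below it.

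Over the 5 sections together the CM4 minus CM1 log2 changes were -0.17 to -0.07 and no member passed (adjusted p 0.715 to 0.911), where 1.15% of 13285 genes did. The members' median of -0.15 was 0.03 without MI day 3 (9 of 10 positive), -0.08 without MI day 7 replicate 1, -0.11 without replicate 2, -0.30 without sham day 3 and -0.27 without sham day 7. The difference between operations was tested on the per-section differences. It was negative for all 10 members, from -0.79 (mt-Nd3) to -1.15 (mt-Co2), and 7 passed as lower in MI, where 0.151% of 13285 genes passed in that direction. mt-Nd5 had the smallest adjusted p (log2 difference -1.09 ± 0.16 SE, limma, adjusted p = 0.000588). mt-Nd1, mt-Nd2, mt-Nd3, mt-Nd4, mt-Cytb and mt-Co2 passed with adjusted p from 0.0076 to 0.0491. mt-Co1 (-0.90, adjusted p = 0.0710), mt-Co3 (-0.93, adjusted p = 0.0564) and mt-Atp6 (-0.86, adjusted p = 0.0551) did not. The median over all genes was 0.28 and that of the members -0.91. With mitochondrial and haemoglobin genes left out of the total, the median over all genes was 0.08 and all 10 members passed (-1.41 to -1.02).

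This comparison rests on 2 sham sections: without sham day 3 no member passed, and without sham day 7 only 1 did, with median log2 differences of -0.86 and -0.96. Without MI day 7 replicate 2, 4 passed. Position moved with it. At the edge lay 56.1% of CM4-dominant spots in sham day 3 and 43.1% in sham day 7, but 12.5% in MI day 3, 1.32% in MI day 7 replicate 1 and 15.1% in replicate 2. The paper reports CM4 cells as scattered in sham hearts and enriched in the infarct region after MI. Immune markers summed to 0.0998% in CM4-dominant and 0.0279% in CM1-dominant spots of MI day 3, and fibroblast markers to 0.817% and 0.343%. Both lists were also higher in CM4-dominant spots of the other sections. The part of this place and these markers was not tested. With interior spots only, an alternative added after seeing the data, the signs of all 10 members in all 5 sections were kept (summed 10: 0.43 and 0.20 in sham, -0.81, -0.37 and -0.20 in MI), the log2 differences were -1.06 to -0.68, and no member passed (adjusted p 0.0961 to 0.260). Haemoglobin transcripts, a mark of red blood cells, moved with it too. All 4 measured were lower in MI in the same test (-1.40 to -1.81), summing to 0.858% in CM4-dominant and 0.383% in CM1-dominant spots of sham day 3, 1.99% and 0.638% in sham day 7, 0.652% and 1.10% in MI day 3, 0.961% and 0.860% in MI day 7 replicate 1, and 1.08% and 0.992% in replicate 2. Their part in the result was not tested.

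Among 79 nuclear-encoded subunits of complexes I to V, 2 passed in the same test, both as higher in MI: Cox6a1 (0.70 ± 0.13 SE, adjusted p = 0.0076) and Cox8a (0.52 ± 0.13 SE, adjusted p = 0.0447), each the non-muscle isoform of a complex IV subunit. Over all genes 1.58% passed as higher, a share near that of the nuclear group. The split of all calls into 210 higher and 20 lower became 25 and 28 with mitochondrial and haemoglobin genes left out of the total and 21 and 35 by median-of-ratios. The median of the 79, 0.10 against -0.91 for the 10 mitochondrially encoded transcripts, became -0.12 with that other total, where none passed, so the direction of the nuclear group depends on the scaling and that of the 10 does not. None of the 8 transcripts used as markers of mitochondrial mass (such as Vdac1 and Slc25a4) and none of 25 genes for mitochondrial gene expression passed.

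**Figure D4:**
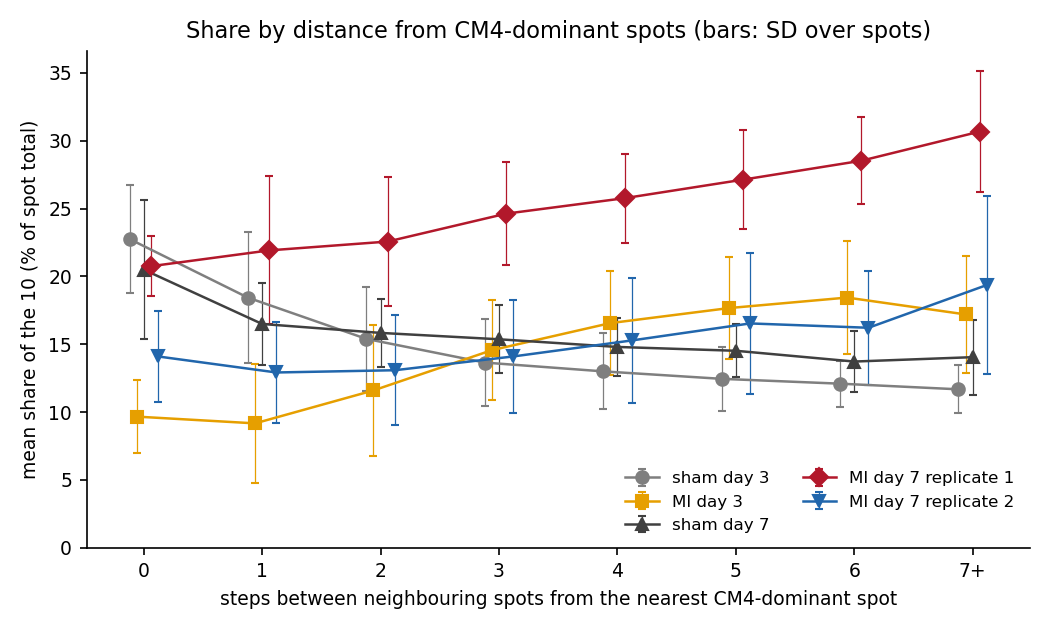
Mean summed share of the 10 transcripts (percent of the spot total) by the number of steps between neighbouring spots from the nearest CM4-dominant spot, for the 5 sections. Bars are the SD over spots. The share runs down from 22.8% and 20.5% in the sham sections and up to 30.7% in MI day 7 replicate 1.

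The share also changed with distance from CM4-dominant spots. In sham day 3 it went from 22.8% in those spots to 18.4%, 15.4% and 13.7% at 1, 2 and 3 steps and to 11.7% at 7 or more. In sham day 7 it went from 20.5% to 16.5%, 15.8% and 15.4% and to 14.1%. In MI day 3 it was 9.67% in those spots, 9.17%, 11.6% and 14.6% at 1, 2 and 3 steps, and 17.2% at 7 or more. In MI day 7 replicate 1 it went from 20.8% to 21.9%, 22.6% and 24.6% and to 30.7%. In replicate 2 it was 14.1%, then 12.9%, 13.1% and 14.1%, and 19.4% at 7 or more. Spots at 7 or more steps were thus lower than CM4-dominant spots in both sham sections and higher in the 3 MI sections, while at 1 step the share was lower than in CM4-dominant spots in every section except MI day 7 replicate 1. The share of spots at the edge varied with distance as well. In CM4-dominant spots, at 3 steps and at 7 or more steps it was 56.1%, 4.71% and 25% in sham day 3 and 43.1%, 9.47% and 31.4% in sham day 7. At the same distances it was 12.5%, 4.76% and 63.0% in MI day 3, 1.32%, 8.33% and 46.3% in MI day 7 replicate 1, and 15.1%, 14.1% and 28.1% in replicate 2. It was thus lower at the far end than in CM4-dominant spots in both sham sections and higher in the 3 MI sections. In interior spots alone, from CM4-dominant spots to 6 steps, the summed share went from 20.6% to 12.0% in sham day 3, 18.4% to 13.6% in sham day 7, 9.43% to 18.4% in MI day 3, 20.8% to 28.0% in MI day 7 replicate 1 and 13.9% to 15.6% in replicate 2.

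In FB-dominant spots the 10 transcripts were lower than in CM1-dominant spots of the same section in every section. The summed share was 12.9% against 16.2% in sham day 3, 6.69% against 17.0% in MI day 3, 14.7% against 16.1% in sham day 7, 18.2% against 28.1% in MI day 7 replicate 1 and 10.0% against 17.2% in replicate 2. All 10 members fell, with log2 changes from -0.70 (mt-Nd2) to -0.56 (mt-Nd3) and adjusted p from 0.00217 to 0.0386 (limma), where 3.42% of 13405 genes passed as lower. That background was 5.78% with mitochondrial and haemoglobin genes left out of the total and 11.3% by median-of-ratios, and all 10 passed under both. The split of all calls into 3154 higher and 458 lower was 1954 and 781, and 1447 and 1517, in that order. Of the 79 nuclear-encoded subunits 53 fell and none rose, with a median of -0.27. All 6 fibroblast markers (median 1.67), 5 of 6 immune and all 3 endocardial markers rose, where 23.5% of all genes did, and 4 of 7 cardiomyocyte markers fell (median -0.35). The log2 difference of mt-Co1 was -0.33 in sham day 3, -0.14 in sham day 7, -1.30 in MI day 3, -0.64 in MI day 7 replicate 1 and -0.81 in replicate 2. Whether the difference depends on the operation was not tested. With replicate 1 or replicate 2 of MI day 7 left out only 2 members passed, and with interior spots only 8 did. The members' medians were about as large in these fits (-0.64, -0.60 and -0.59, against -0.63).

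Among classes with at least 10 spots the lowest means were 4.02% in 20 macrophage-scored spots of MI day 3, 6.60% in 15 EPI-scored spots of MI day 7 replicate 2 and 6.69% in 22 FB-dominant spots of MI day 3. In the sham sections macrophage-scored spots were at 15.9% on both days. Spots scored highest for endothelial cells lay between 13.2% and 14.1% in the 4 sections other than MI day 7 replicate 1, a narrower range than any of CM4, FB or macrophage.

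The third question was whether the rim of the sections differed from the inside, using position alone: a spot was at the edge if fewer than 6 neighbouring spots were covered. The summed share was 21.5% at the edge and 14.6% inside in sham day 3, 16.2% and 13.0% in MI day 3, 17.9% and 15.4% in sham day 7, 30.1% and 23.6% in MI day 7 replicate 1 and 18.0% and 14.7% in replicate 2. Edge spots were higher in 5 of 5 sections, and so was every member in every section. All 10 rose at the edge by limma, where 0.736% of 13308 genes passed as higher. mt-Co2 had the largest change (0.56 ± 0.07 SE, adjusted p = 1.89e-05), with per-section values of 0.84, 0.58, 0.29, 0.57 and 0.51. mt-Nd3 had the smallest (0.23 ± 0.05 SE, adjusted p = 0.0188), and mt-Co1 the largest adjusted p (0.29 ± 0.07 SE, adjusted p = 0.0244). The median over all genes was -0.13. The split of all calls into 98 higher and 539 lower became 139 and 102 with mitochondrial and haemoglobin genes left out of the total and 177 and 51 by median-of-ratios, and all 10 members passed under both.

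Within the summed 10, mt-Co2 gave a larger part at the edge than inside in all 5 sections: 9.31% and 7.92% in sham day 3, 10.0% and 8.32% in MI day 3, 7.89% and 7.50% in sham day 7, 9.33% and 7.96% in MI day 7 replicate 1 and 8.53% and 7.32% in replicate 2. The parts of mt-Co1 and mt-Cytb were smaller at the edge in all 5, with mt-Co1 in MI day 3 at 24.3% and 25.9%. The rise at the edge was thus unequal among the members.

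None of the 79 nuclear-encoded subunits of complexes I to V rose at the edge and 9 fell, where 4.05% of all genes fell, with a median of -0.12 and Cox5a lowest at -0.22. With mitochondrial and haemoglobin genes left out of the total the median was -0.03, none of the 79 passed and the 10 members still rose (0.34 to 0.69). Other transcripts moved with the edge. All 4 haemoglobin genes (median 0.95), 3 of 6 fibroblast markers and 1 of 6 immune markers rose. Of the epicardial list, in which 2 markers were measured, Msln is named as the one with the larger change (2.79 ± 0.27 SE, limma, adjusted p = 7.75e-07). Postn of the fibroblast list and Actc1 of the cardiomyocyte list fell. The part of all these transcripts in the result was not tested. Median raw UMI count per spot was lower at the edge in 4 sections and higher in sham day 3. In CM1-dominant spots alone all 10 rose at the edge (0.20 to 0.50, adjusted p up to 0.0202), and with spots of at least 2 neighbours all 10 did (0.24 to 0.54). Without MI day 7 replicate 1 only 5 members passed, with a median change of 0.36 as in all sections, and without sham day 3 only 6, with a median of 0.31.

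**Figure D5:**
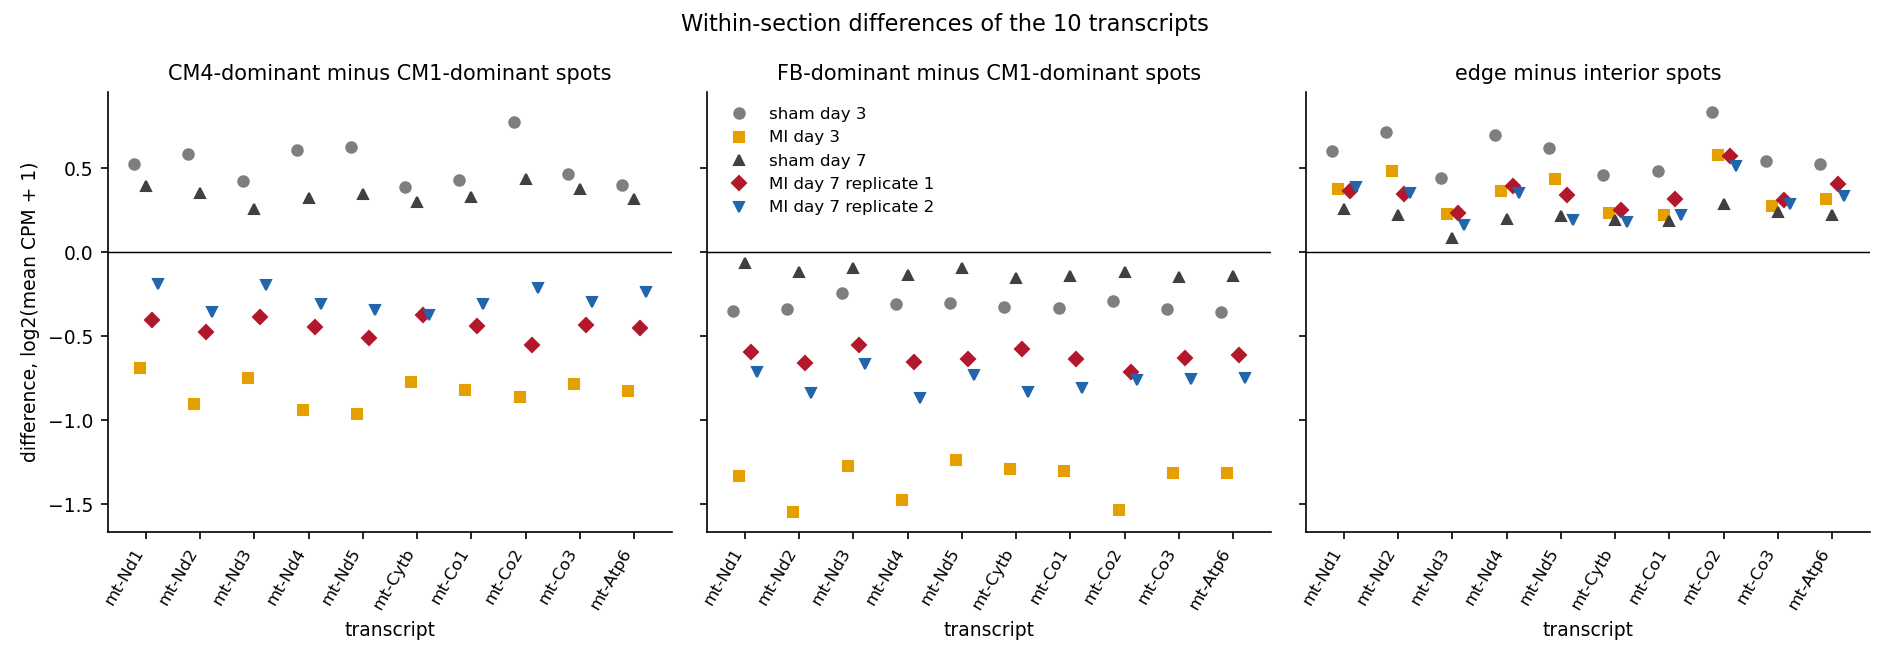
Differences of the 10 transcripts between kinds of spot within each section, as log2(mean CPM + 1), with 1 point per section and transcript. CM4-dominant minus CM1-dominant is above 0 in both sham sections and below 0 in the 3 MI sections, FB-dominant minus CM1-dominant is below 0 in all, and edge minus interior is above 0 in all.

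The difference between edge and interior was not found to depend on the operation. The log2 differences of MI minus sham were -0.10 (mt-Cytb) to -0.01 (mt-Co2) with standard errors of 0.11 to 0.15 and adjusted p from 0.954 to 0.997, and 0% of 13308 genes passed by limma. Without adjustment, p was under 0.05 for 348 genes as higher and 406 as lower, with 554 and 291 by median-of-ratios and 482 and 223 in spots between the 25th and 75th percentile of raw UMIs. The members' median difference was -0.08, with 0.12 when sham day 3 was left out and -0.25 when sham day 7 was.

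Among 2145 nuclear-encoded genes with at least 50 CPM in every section, those whose level followed the summed share most closely over spots were Atp5e (mean rank correlation over the 5 sections 0.55), Myl3 (0.53), Cox7c (0.49), Pln (0.48) and Cox6a2 (0.48). Atp5e, Cox7c and Cox6a2 code for subunits of ATP synthase and cytochrome c oxidase, Myl3 for a ventricular myosin light chain and Pln for the regulator of the calcium pump. For Atp5e the correlation was 0.37 in sham day 3, 0.70 in MI day 3, 0.40 in sham day 7, 0.70 in MI day 7 replicate 1 and 0.58 in replicate 2. Those least like it were Nppa, an atrial peptide (-0.49), Myl9 (-0.39), Fn1 (-0.39), Postn (-0.38) and Sparc (-0.37), of smooth muscle and extracellular matrix. The median over all 2145 genes was 0.03. The values describe spots of 5 libraries, and carry no test.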

How the data were processed

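Following the paper and the submitters' processing notes, the authors made Visium spot matrices with Space Ranger on mm10/GRCm38 and processed them in Seurat with sctransform. The deposited table of sham day 3 holds raw UMI counts, and the deposited tables of the other 4 sections hold sctransform-corrected counts, whose spot totals equal the corrected totals in the metadata, treated here as a score. The authors also deposited, per spot, raw UMI totals, image positions and 11 label-transfer scores, each a fraction. Whether counting used strand is not given in the sources used here.

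Each gene was scaled to its spot's total, averaged per section and kind of spot as CPM (a total of 1000000), and tested as log2(mean + 1) with limma 3.58.1 (R 4.3.3, trend), with section as block within sections, Benjamini-Hochberg adjustment over all genes and a threshold of 0.05, among genes at 1 CPM or more in at least 2 profiles. Sections are the replicates. The study's supplement calls the 2 MI day 7 sections independent biological replicates, and the other groups have 1 section each. The scripts were tested on simulated data. Isolated spots were kept, and doublets do not apply to spots.

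The members and gene lists were chosen with earlier results of these data known. All 10 members were named in every comparison, with the highest and lowest of lists and the 5 most and 5 least like genes by rank correlation. Alternatives were other totals, median-of-ratios scaling, a pseudocount of 10, no filter, score 0.5, spots between the 25th and 75th percentile of raw UMIs, and leaving out each section. Interior spots only, spots with at least 2 neighbours and CM1-dominant spots only were added after seeing the data. Moran's I, shares and correlations carry no test.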

Additional observations from a re-analysis of the deposited data

Results flagged for a closer look

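The difference between CM4-dominant and CM1-dominant spots depended on the operation in 7 members by the test of the difference itself (limma, MI minus sham, log2): mt-Nd1 at -0.89, mt-Nd2 at -1.05, mt-Nd3 at -0.79, mt-Nd4 at -1.03, mt-Nd5 at -1.09, mt-Cytb at -0.85 and mt-Co2 at -1.15. The position of the CM4-dominant spots and their haemoglobin transcripts moved with it, and their part was not tested. With interior spots only no member passed, while the differences were -1.06 to -0.68 (median -0.79, against -0.91) and all signs were kept. In the difference between edge and interior, sham day 3 lay far above the other 4 sections for mt-Cytb (0.46) and mt-Co3 (0.55). Its table is also the one that holds raw rather than corrected counts, and the part of that in the gap was not tested. In all, 30 such sets of 5 sections were examined. The members vary together over spots, so the flags are not independent, and their rate by chance was not computed.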

How the results depend on the processing

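No paired analysis was possible because no pair of groups, by operation or day, shares 2 replicate numbers. Kinds of spot were compared within each section, with section as block. The members' median turned sign with a section left out in MI minus sham across days, day 7 minus day 3, CM4 minus CM1 and the edge difference by operation, none of which had a member that passed, and in MI minus sham at day 7 with replicate 1 left out. Calls of members depended on the setting in 3 comparisons. For FB-dominant minus CM1-dominant spots 10 members passed, while 5 did in spots between the 25th and 75th percentile of raw UMIs and 2 to 10 when each section was left out. For edge minus interior spots the range with a section left out was 5 to 10. For the CM4 minus CM1 difference, MI minus sham, 7 passed, with 4 at a pseudocount of 10, 0 in interior spots only and 0 to 10 with a section left out. In the other comparisons no member passed under any alternative that left a test, while the summed share, MI minus sham, ranged from -1.11 to 4.29 percentage points with a section left out. The members' medians kept their sign in FB-dominant minus CM1-dominant, edge minus interior and the CM4 minus CM1 difference under every alternative run. Moran's I was lower in all 5 sections with a second ring of neighbours. Counts of all genes passing moved more. MI minus sham across days gave 1 gene, 3 by median-of-ratios, 0 at a pseudocount of 10 and 0 to 366 with a section left out. Day 7 minus day 3 gave 77, 196 without mitochondrial and haemoglobin genes in the total, 185 by median-of-ratios (127 higher and 58 lower, against 32 and 45) and 32 to 758 with a section left out. MI minus sham at day 7 gave 30, 0 with either other scaling, and 29 to 34 with a day 3 section left out. Without sham day 7 no value could be had, and without either MI day 7 section no test. CM4 minus CM1 gave 153, 40 in interior spots and 63 to 300. FB minus CM1 gave 3612 (3154 higher and 458 lower, against 1954 and 781 without mitochondrial and haemoglobin genes in the total and 1447 and 1517 by median-of-ratios), 1839 between the UMI percentiles and 2165 to 3557. Edge minus interior gave 637 (98 higher and 539 lower), 241 without mitochondrial and haemoglobin genes in the total (139 and 102), 228 by median-of-ratios (177 and 51), 99 between the UMI percentiles, 191 in CM1-dominant spots and 132 to 782. The CM4 minus CM1 difference by operation gave 230 (210 and 20), 53 (25 and 28), 56 (21 and 35), 68 at a pseudocount of 10, 80 between the UMI percentiles, 3 in interior spots and 37 to 371. The edge difference by operation gave 0, 1 at a pseudocount of 10, 1 in CM1-dominant spots and 0 to 15. The fewer spots or sections behind some alternatives are by construction, and the cause of the other shifts was not tested. With 5 sections, 3 MI and 2 sham, the spread between sections limits every comparison.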
